A study of Mus musculus with 7 samples.

Results

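The expression of 10 genes of the NF-kappaB system was followed in gentamicin-damaged mouse utricles with and without *Fos* overexpression. They were taken by name from the deposited counts, 10 of the 32285 genes in each table, and comprise the subunits *Nfkb1*, *Nfkb2*, *Rela* and *Relb*, the inhibitors *Nfkbia* and *Nfkbie*, the feedback regulators *Tnfaip3* and *Birc3*, and the inflammatory targets *Tnf* and *Icam1*. The utricle is the otolith organ of the inner ear that senses linear acceleration, and gentamicin is an aminoglycoside antibiotic that kills its hair cells. Utricles of wild-type mice (C57BL/6J per the study's methods) were explanted at postnatal day 2, exposed to 2 mM gentamicin for 24 h and collected on day 5 after injury. The 3 libraries named Gent had this treatment alone per their labels. The 4 libraries named Gent+Fos OE came from utricles that had also been given AAV-PHP.eB carrying mouse *Fos* under the CMV promoter, which is active in many cell types, for 48 h. Each library was a pool of 12 utricles, and the labels do not tie a library to animals, so the tests measure the spread between pools. The methods speak of 3 replicates per condition, whereas the labels list 4 and 3, and all 7 libraries were used. The deposited Gent counts, however, carry names with the letters "sh", which can also be read as short hairpin RNA. In the study's figure legends the comparison group of these data is called Gent-control in one place and a control AAV group in another. Whether the Gent utricles received any virus could not be settled from the labels, legends and methods. Every fold change below takes the Gent group as labelled, and an effect of a virus cannot be told apart from that of *Fos*.

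NF-kappaB is a family of dimeric transcription factors that is held in the cytoplasm by inhibitor proteins until signals from cytokine or Toll-like receptors trigger the destruction of those inhibitors. The freed dimers enter the nucleus and activate cytokine, adhesion and survival genes, together with genes for their own inhibitors, so that many outputs of the pathway are also its brakes. Macrophages are a well-known source of such transcripts in damaged tissue, and the utricle holds resident macrophages beside its hair cells, supporting cells and stroma.

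Promoter sequence is shown first, because feedback by NF-kappaB rests on its binding sites near the genes of its own inhibitors, and because AP-1, the dimer that contains c-Fos, reads a different element. RefSeq windows on GRCm38.p6 from 250 bases before to 50 bases after each transcription start were given for 8 of the 10 genes, and *Nfkb1* and *Relb* were not analysed here. Both strands were searched for the kappaB consensus GGGRNNYYCC (R is A or G, Y is C or T, N is any base). They were also searched for TGANTCA, a loose form of the AP-1 element that takes any base at its centre. At least 1 kappaB match was found for 4 genes (*Nfkb2*, *Nfkbia*, *Nfkbie* and *Tnfaip3*), and a TGANTCA match for 3 (*Nfkb2*, *Nfkbie* and *Tnfaip3*). Of all 32851 promoter windows of the same length, 8.46% held a kappaB match and 7.81% a TGANTCA match. Among the 12637 genes tested for expression that had a window, 12.4% held a kappaB match and 6.99% a TGANTCA match. For each of the 4 genes, the stretch with the matches of its first listed start is given below, 5′ to 3′ on the strand of the gene, with matched bases in capitals. Further matches in the windows of the other *Nfkb2* starts are not printed.
Nfkb2, chr19:46304673-46304736, plus strand, bases -64 to -1 from the first start: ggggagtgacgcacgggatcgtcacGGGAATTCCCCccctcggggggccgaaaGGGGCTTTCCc
Nfkbia, chr12:55492648-55492701, minus strand, bases -54 to -1: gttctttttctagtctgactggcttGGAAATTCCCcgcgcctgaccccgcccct
Nfkbie, chr17:45555519-45555628, plus strand, bases -181 to -72: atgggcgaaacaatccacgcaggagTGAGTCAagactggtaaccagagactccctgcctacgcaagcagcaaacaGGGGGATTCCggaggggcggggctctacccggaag
Tnfaip3, chr10:19015411-19015571, minus strand, bases -161 to -1: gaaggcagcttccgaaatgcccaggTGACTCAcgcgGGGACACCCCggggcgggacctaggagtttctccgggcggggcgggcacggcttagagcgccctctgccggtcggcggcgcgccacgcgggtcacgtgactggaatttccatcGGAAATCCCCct

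In *Nfkb2* the first block of capitals covers overlapping kappaB matches on both strands, and the second block is a separate match beside the transcription start. The kappaB matches printed for *Nfkb2* and *Nfkbia*, and the second of *Tnfaip3*, lie close to the start. In the printed stretches of *Nfkbie* and *Tnfaip3* a TGANTCA element stands upstream of a kappaB match. The window of the second *Nfkb2* start also holds a TGANTCA match and further kappaB matches, of which 1 also falls in the window of the third start. This TGANTCA match of *Nfkb2* reads TGAATCA, whereas those of *Nfkbie* and *Tnfaip3* read TGAGTCA and TGACTCA. No match to either motif stood in the windows of *Rela*, *Birc3*, *Tnf* or *Icam1*, which says only that these letters are not in these windows. The matches are a description of sequence and no binding was measured here.

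**Figure D1:**
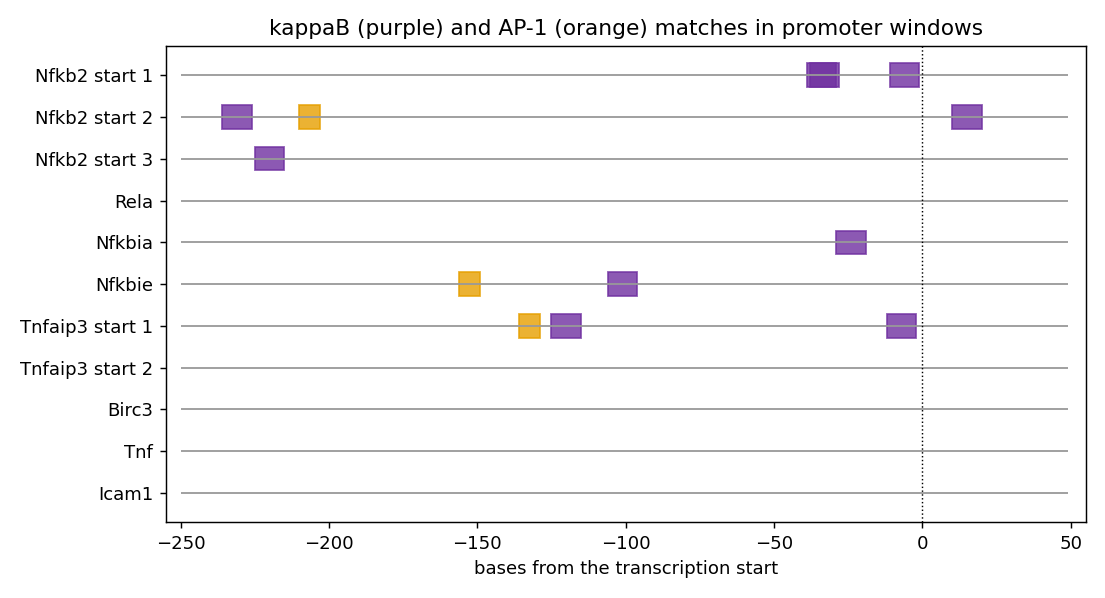
Matches to the kappaB consensus (purple boxes) and to TGANTCA (orange boxes) in the promoter windows of the 8 genes that have one. The x axis gives bases from the transcription start (dotted line), and each row is 1 annotated start. Matches are seen in *Nfkb2*, *Nfkbia*, *Nfkbie* and *Tnfaip3* and none in the other 4 genes.

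Expression was compared as CPM, the counts of a gene scaled to a common library total after TMM normalization (trimmed mean of M-values), with edgeR's quasi-likelihood F-test fitted to 17155 genes and Benjamini-Hochberg adjustment over all of them. The study's limits were kept: a called gene had an adjusted p below 0.01 and differed by more than 0.25 on the log2 scale in either direction. The libraries held 27879889 to 34335214 counts. *Fos* itself, which includes transcripts of the transgene, had 151.1, 150.6, 167.0 and 148.8 CPM with overexpression and 39.5, 40.58 and 34.61 CPM without, a called log2 fold change of 2.01 ± 0.13 (SE, edgeR adjusted p = 0.000142). Gent replicate 2 stood apart: the correlation between gene length and its deviation from the mean of all libraries was -0.4964 (Spearman, across genes), against 0.1532 and -0.2213 in Gent replicates 1 and 3 and 0.1242 to 0.325 in the Gent+Fos OE libraries, so the length trend differed in part with the groups. Because it enters every contrast, fold changes of the 10 genes without it are given beside the main values, as are those with gene length trends removed where they moved by more than 1.5 times.

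All 10 genes passed the filter on low counts, and all 10 fold changes were below zero, of which *Nfkbia* and *Tnfaip3* turned above zero in 1 alternative fit each (0.0149 with a replicate block and gene length trends removed, and 0.0649 without Gent replicate 1). None was called, against 0.28% of all tested genes called lower and 0.134% called higher. At an adjusted p under 0.05 with the same fold limit, *Tnf* and *Nfkbie* were lower (1.19% of all tested genes were lower and 0.665% higher at that limit). At an unadjusted p under 0.05, 6 of the 10 genes were lower and 0 higher (13.4% and 11.1% of all tested genes). In 5 of the 10 genes every Gent+Fos OE library lay below every Gent library (12.2% of all tested genes, with 11.3% separated in the higher direction). The median log2 fold change of the 10 genes was -0.36, beside a median of -0.0007 over all tested genes. DESeq2 called *Tnf* and *Nfkbie* lower at the stricter limit (1.73% of 18927 genes were called lower by it).

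**Figure D2:**
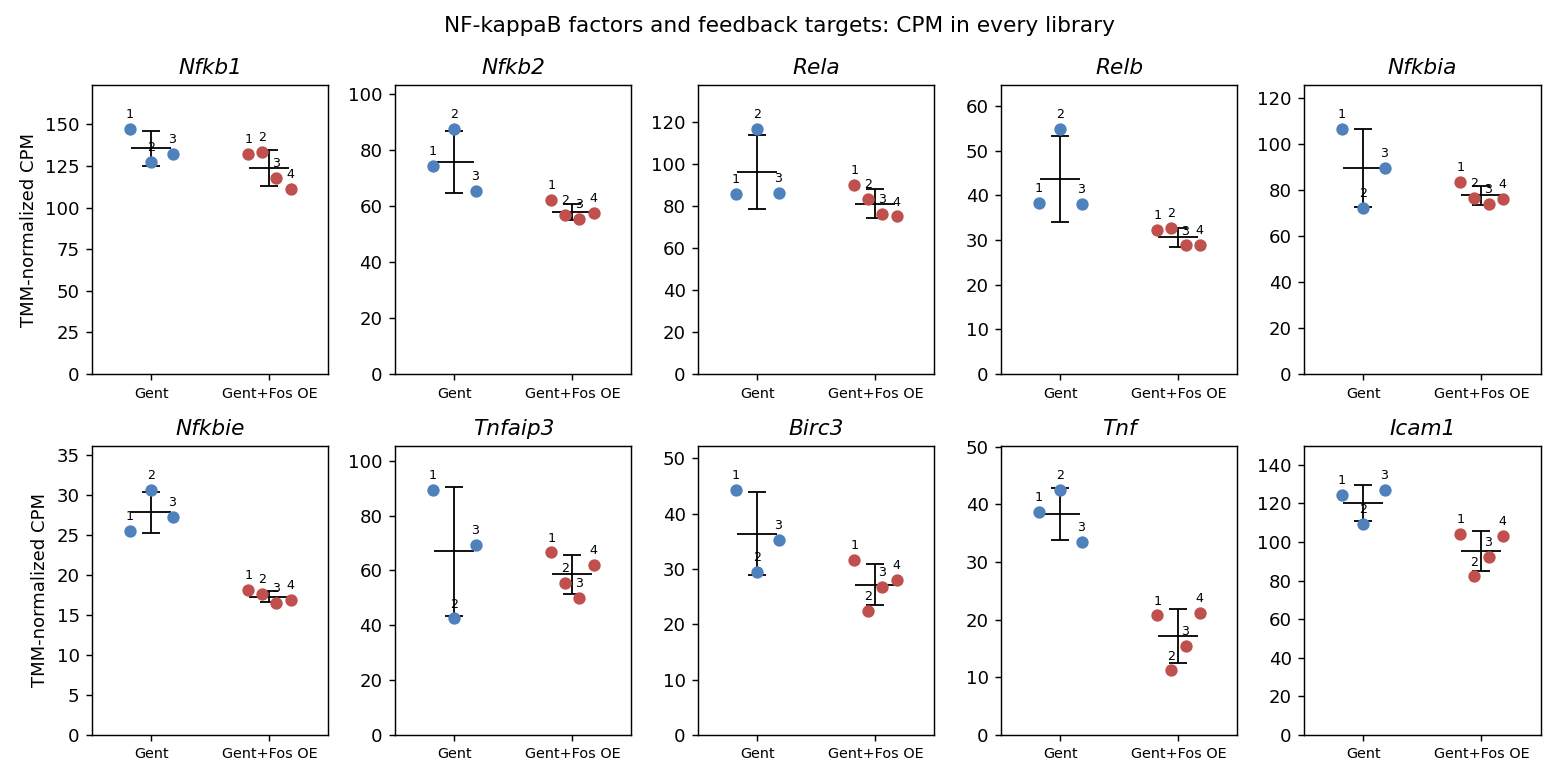
TMM-normalized CPM (y axis, from 0) of the 10 genes in each library, with the replicate number above each point. Horizontal lines are group means and error bars are SD (3 Gent and 4 Gent+Fos OE libraries). The groups do not overlap for *Nfkb2*, *Relb*, *Nfkbie*, *Tnf* and *Icam1*.

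*Tnf* encodes the cytokine tumor necrosis factor, which is both an output of NF-kappaB and one of its strongest activators. It lies on the minus strand of chr17:35199381-35202007 (mm10) and was at 38.74, 42.53 and 33.54 CPM in the Gent libraries, and at 20.74, 11.18, 15.45 and 21.17 CPM in the Gent+Fos OE libraries. The highest Gent+Fos OE library thus lay well below the lowest Gent library. The mean was 17.1 ± 4.75 CPM (SD, n = 4) with *Fos* overexpression and 38.3 ± 4.51 (SD, n = 3) without. The log2 fold change of -1.16 ± 0.21 (SE), or 44.8% of the Gent level, had an edgeR adjusted p of 0.0241, and it was the largest of the 10. Without Gent replicate 2 the log2 fold change was -1.08. The adjusted p was above 0.05 when Gent+Fos OE replicate 1 (edgeR, 0.0519) or replicate 3 (0.103) was left out, and with DESeq2 it was 6.22e-05. Without the filter on low counts edgeR gave 0.00285, a call.

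*Icam1* encodes an adhesion molecule that leukocytes bind on activated endothelium and other cells. In the Gent libraries it was at 124.3, 109.5 and 127.1 CPM, and in the Gent+Fos OE libraries at 104.1, 82.15, 92.13 and 103.2 CPM. Again the groups did not overlap, but the gap between them was small. Its log2 fold change was -0.33 ± 0.13 (edgeR adjusted p = 0.162), or -0.40 without Gent replicate 2, and the exact two-sided permutation test over all 35 groupings into 4 and 3 gave 0.0286, which is the smallest p this design can give. Of its exonic bases on chr9:21015985-21028817, 11.7% are shared with another annotated gene, and the file headers show that reads hitting both genes were not counted.

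The inhibitors bind the dimers and mask their nuclear localization signals. *Nfkbia* encodes I-kappaB alpha, the classical inhibitor that is destroyed and made anew within a response, and *Nfkbie* encodes I-kappaB epsilon, a slower inhibitor of the same family. *Nfkbie* (chr17:45555703-45563169, plus strand) was at 25.53, 30.64 and 27.27 CPM in the Gent libraries and at 18.11, 17.67, 16.53 and 16.83 CPM in the Gent+Fos OE libraries. The Gent+Fos OE libraries were tightly grouped below all Gent libraries, at 17.3 ± 0.732 CPM (SD, n = 4) against 27.8 ± 2.60 (SD, n = 3). The log2 fold change was -0.69 ± 0.13 (edgeR adjusted p = 0.0256), and -0.62 without Gent replicate 2. Its edgeR adjusted p was between 0.062 and 0.12 when any 1 Gent+Fos OE library was left out, and 0.081 when Gent replicate 3 was. DESeq2 gave 8.02e-05.

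*Nfkbia* (chr12:55489410-55492647, minus strand) was at 106.5, 72.37 and 89.74 CPM in the Gent libraries and at 83.53, 76.7, 74.12 and 76.14 CPM with *Fos* overexpression. Gent replicate 2 was the lowest of all 7 libraries, so the groups overlapped. The fitted log2 fold change was -0.21 ± 0.14 (edgeR adjusted p = 0.38) and -0.34 without Gent replicate 2 (0.0925), but -0.06 both without Gent replicate 1 and with gene length trends removed. The log2 ratio of *Nfkbie* to *Nfkbia* counts, a quantity free of library scaling that was chosen after its values were seen, was -2.206, -2.118, -2.165 and -2.178 in the Gent+Fos OE libraries. In the Gent libraries it was -2.061, -1.24 and -1.718, higher in each case and widely spread.

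The subunits fall into the classical pair, *Rela* with *Nfkb1*, and the alternative pair, *Relb* with *Nfkb2*, whose own transcription is induced by NF-kappaB. *Relb* (chr7:19606217-19629438, minus strand) was at 38.23, 54.84 and 38.11 CPM in the Gent libraries and at 32.31, 32.64, 28.81 and 28.84 CPM in the Gent+Fos OE libraries. The groups did not overlap, and Gent replicate 2 stood well above the other 2 Gent libraries. On the log2 scale *Relb* differed by -0.51 ± 0.15 (edgeR adjusted p = 0.108). It shrank to -0.32 without Gent replicate 2 (edgeR adjusted p = 0.126), and was -0.60 without Gent replicate 1 (0.0475). DESeq2 on all libraries gave an adjusted p of 0.0461.

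*Nfkb2* (chr19:46304320-46312385, plus strand) was at 74.51, 87.56 and 65.44 CPM in the Gent libraries and at 62.2, 56.74, 55.5 and 57.61 CPM in the Gent+Fos OE libraries. The lowest Gent library lay just above the highest Gent+Fos OE library. Its log2 fold change was -0.39 ± 0.13 (edgeR adjusted p = 0.128), or -0.28 without Gent replicate 2, and 18.1% of its exonic bases are shared with another annotated gene.

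*Rela* (chr19:5637483-5648130, plus strand) encodes the main activating subunit and was at 85.8, 116.5 and 86.21 CPM in the Gent libraries. With *Fos* overexpression it was at 90.11, 83.1, 76.02 and 74.97 CPM. The groups overlapped, with Gent replicate 2 far above its group mates. The difference in *Rela* on the log2 scale was -0.25 ± 0.14 (edgeR adjusted p = 0.304), -0.09 without Gent replicate 2 and -0.16 with gene length trends removed.

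*Nfkb1* (chr3:135584655-135691547, minus strand), the partner of *Rela* in the classical dimer, was at 147.2, 127.3 and 132.4 CPM in the Gent libraries. In the Gent+Fos OE libraries it was at 132.1, 133.7, 117.8 and 111.4 CPM. The groups overlapped and the log2 fold change of -0.13 ± 0.12 was the smallest of the 10 (edgeR adjusted p = 0.518). It was -0.18 without Gent replicate 2 and -0.07 without Gent replicate 1. *Nfkb1* has the longest exonic length of the 10 genes, 12061 bases, and with gene length trends removed from each library its log2 fold change was -0.48 (edgeR adjusted p = 0.054).

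Within each library, the log2 ratio of *Relb* to *Rela* counts was -1.48, -1.348, -1.4 and -1.378 with *Fos* overexpression and -1.166, -1.088 and -1.178 without. Unlike both genes alone, this ratio held Gent replicate 2 close to the other Gent libraries, and the groups did not overlap. The ratio was also chosen after its values were seen and is a description. The ratio of *Nfkb2* to *Nfkb1* differed by -0.24 on the log2 scale between the group means, and its groups overlapped.

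The feedback regulators act upstream of the inhibitors. *Tnfaip3* encodes a ubiquitin-editing enzyme that shuts off signaling from the receptors, and *Birc3* a ubiquitin ligase of the inhibitor of apoptosis family that takes part in TNF receptor complexes. *Tnfaip3* (chr10:19000910-19015657, minus strand) was at 89.4, 42.5 and 69.25 CPM in the Gent libraries and at 66.56, 55.42, 50.09 and 61.95 CPM in the Gent+Fos OE libraries. The Gent libraries alone spanned more than the whole Gent+Fos OE group, with the highest and the lowest value of all 7. The log2 fold change of *Tnfaip3* was -0.20 ± 0.22 (edgeR adjusted p = 0.588), was -0.44 without Gent replicate 2 and -0.32 with gene length trends removed, and turned to 0.06 without Gent replicate 1.

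*Birc3* (chr9:7848699-7873186, minus strand) was at 44.29, 29.49 and 35.25 CPM in the Gent libraries and at 31.56, 22.41, 26.69 and 28.02 CPM in the Gent+Fos OE libraries. Only Gent+Fos OE replicate 1 lay above the lowest Gent library. *Birc3* had a log2 fold change of -0.42 ± 0.17 (edgeR adjusted p = 0.171), and the exact two-sided permutation p was 0.0857. The log2 value was -0.55 without Gent replicate 2 and -0.25 without Gent replicate 1.

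**Figure D3:**
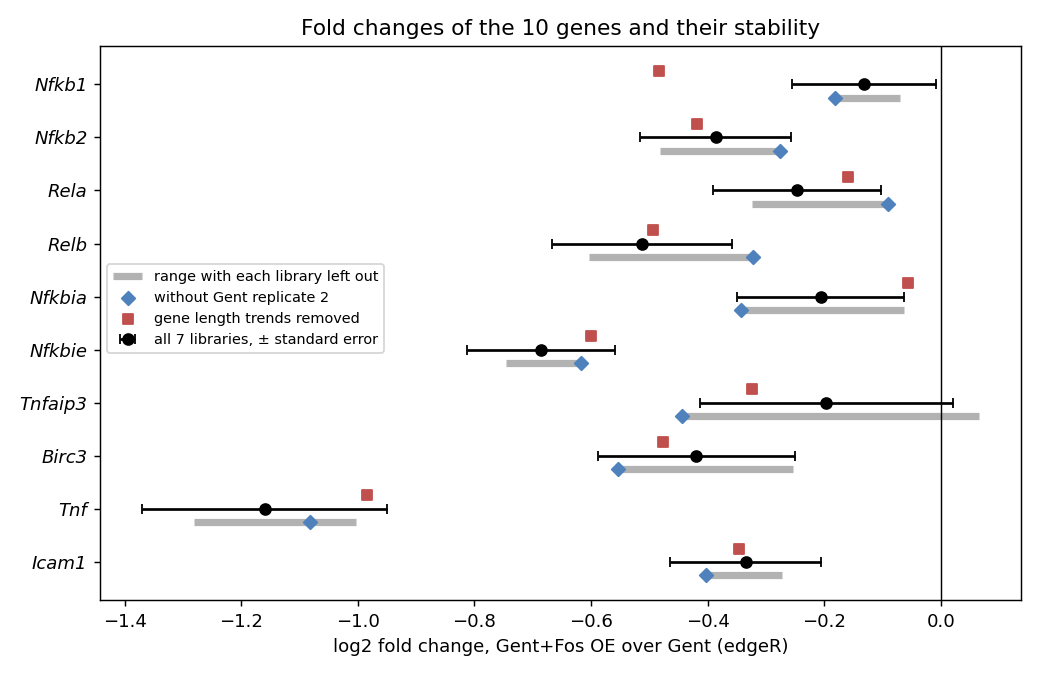
Log2 fold change of each gene (x axis, Gent+Fos OE over Gent, edgeR). Black points with bars are the fit to all 7 libraries ± SE, grey bars the range when each library is left out in turn, blue diamonds the fit without Gent replicate 2, and red squares the fit with gene length trends removed. *Tnf* and *Nfkbie* lie farthest to the left in each fit shown, and the grey bar of *Tnfaip3* reaches past zero.

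Within the groups, Gent replicate 2 moved some of the 10 genes up and others down. Gent replicate 2 deviated from the mean of the other 2 Gent libraries by -0.89 on the log2 scale for *Tnfaip3*, -0.43 for *Nfkbia* and -0.42 for *Birc3*. In the same library *Relb* deviated by 0.52, *Rela* by 0.44 and *Nfkb2* by 0.33. Over the 7 libraries, with deviations taken from the group means, Pearson's r was 0.97 between *Nfkbia* and *Tnfaip3*, 0.97 between *Rela* and *Relb* and -0.76 between *Relb* and *Tnfaip3*. Without Gent replicate 2 these were 0.90, 0.89 and 0.29. Other pairs turned as well: *Rela* with *Nfkbia* went from -0.59 to 0.52, and *Rela* with *Tnfaip3* from -0.65 to 0.41, so the opposite movement of these genes rested on that library. For *Nfkb2*, r with *Relb* was 0.85 over 7 libraries and 0.38 over the other 6, whereas with *Nfkbia* it was -0.41 and 0.99 and with *Tnfaip3* -0.46 and 0.94. These are descriptions over libraries that share their scaling. In the Gent+Fos OE group, replicate 2 held the lowest *Tnf*, *Birc3* and *Icam1*, with *Tnf* 0.76 below the mean of its group mates on the log2 scale.

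Levels were compared between genes only after division by exonic length, as CPM per kb. *Nfkbia* had the highest level in the Gent libraries, 55.6 ± 10.6 CPM per kb (SD, n = 3). *Rela* (31.3), *Icam1* (27.6) and *Tnf* (23.4) followed, and their Gent libraries overlapped from 1 gene to the next. *Nfkb2* came next at 16.5 CPM per kb. Its level and that of *Icam1* are understated by the shared exonic bases given above, on which reads were not counted, so their places in the order are uncertain. *Relb* and *Nfkb1* (11.3 each), *Tnfaip3* (9.28), *Nfkbie* (9.14) and *Birc3* (7.26) completed the order, and each of these overlapped the next. In mean level per kb in Gent, the 10 genes lay between percentiles 61.4 and 95.1 of all tested genes. In the Gent+Fos OE libraries *Tnf* was at 10.5 ± 2.90 CPM per kb (SD, n = 4), below *Nfkb2* in mean but overlapping it, and *Relb* was at 7.89 ± 0.543, overlapping *Tnfaip3*.

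**Figure D4:**
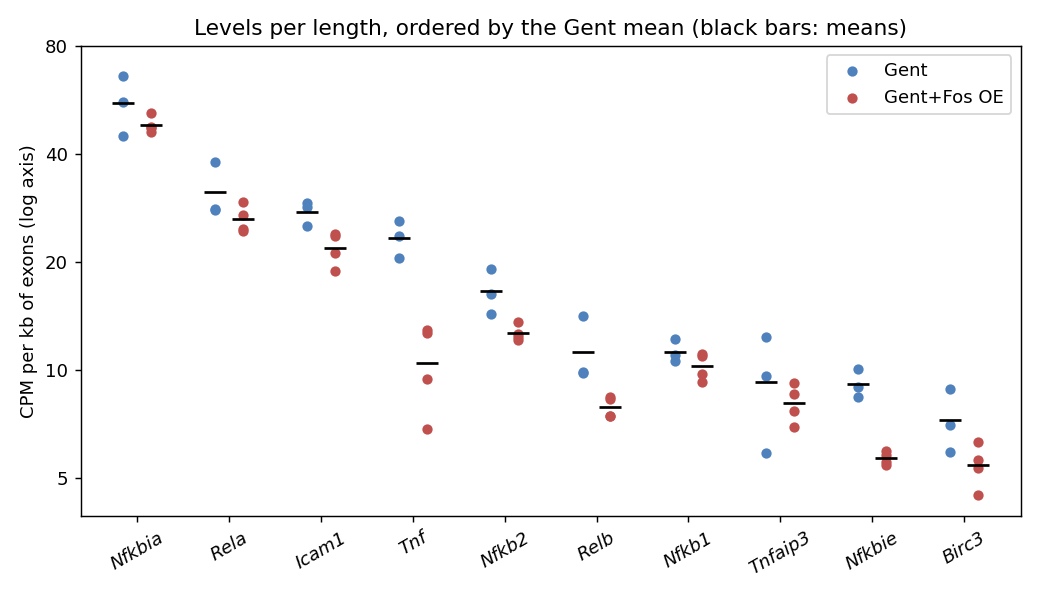
Level of each gene as CPM per kb of exons (y axis, log scale) in every Gent (blue) and Gent+Fos OE (red) library, ordered by the Gent mean. Black bars are group means. The step down from Gent to Gent+Fos OE is widest for *Tnf*, from 23.4 to 10.5 CPM per kb.

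Other genes of the pathway were read from lists set by role. Of 112 listed genes 105 were tested, of which 4 were called lower and 0 higher (0.28% and 0.134% of all tested genes). At an unadjusted p under 0.05, 39 were lower and 10 higher, beside 13.4% and 11.1% of all tested genes. Among the ligands that start the pathway, 8 of 11 were tested, 1 was called lower and the median log2 fold change was -0.57. This was *Il1b*, which encodes the cytokine interleukin-1 beta and was at 5.065, 7.596 and 6.587 CPM in the Gent libraries and 1.889, 1.837, 1.773 and 1.818 CPM with *Fos* overexpression. The groups were far apart, with a log2 fold change of -1.81 ± 0.22 (edgeR adjusted p = 0.00316). The call was lost in 5 of the 7 fits that left out 1 library, namely on leaving out any 1 Gent+Fos OE library (edgeR adjusted p between 0.0137 and 0.0206) or Gent replicate 3 (0.0211). The related *Il1a* had a log2 fold change of -1.36 ± 0.34 and was not called (edgeR adjusted p = 0.0722).

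Among receptors and signal transducers edgeR made 0 calls. At an unadjusted edgeR p under 0.05, 10 were lower and 6 higher (13.4% and 11.1% of all tested genes). DESeq2 called 1 receptor and 2 adaptors and kinases, beside 273 genes higher and 327 lower among all genes. Of the 18 tested receptors, 1 was lower at an adjusted p under 0.05, *Tlr2*, a sensor of bacterial lipoproteins, with a log2 fold change of -0.76 ± 0.16 (edgeR adjusted p = 0.0454). Its partner *Tlr1* was at -0.79 ± 0.25 (0.117). Of the 30 adaptors and kinases, 16 had fold changes below zero and 14 above, with a median of -0.05. The median was -0.01 without Gent replicate 2 and -0.11 with gene length trends removed. Both genes of this list that were lower at the 0.05 limit act directly below Toll-like and interleukin-1 receptors: *Myd88*, the adaptor, at -0.63 ± 0.13 (edgeR adjusted p = 0.0362), and *Irak3*, an inhibitory member of the IRAK family, at -0.86 ± 0.17 (0.0372). *Tlr2*, *Myd88* and *Irak3* each had an adjusted p above 0.05 when any 1 Gent+Fos OE library or Gent replicate 3 was left out, reaching 0.163, 0.14 and 0.129 in edgeR. At an unadjusted p under 0.05, 4 genes of this list were lower and 4 higher, shares near those of all tested genes.

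The list of other subunits and inhibitors held 18 genes, with a median log2 fold change of -0.04. This median was -0.21 without Gent replicate 2 and -0.15 with gene length trends removed. Of these genes 0 passed an adjusted p of 0.05 in edgeR, and DESeq2 called 2. At an unadjusted edgeR p under 0.05, 7 were lower and 2 higher (13.4% and 11.1% of all tested genes). The lowest p in this list belonged to *Otud7b*, a deubiquitinase that restrains NF-kappaB, which was at 85.63, 69.81 and 78.93 CPM in the Gent libraries and 117.0, 135.1, 108.9 and 106.6 CPM in the Gent+Fos OE libraries. It was thus higher in all Gent+Fos OE libraries, opposite in sign to *Nfkbia* and *Nfkbie*, with a log2 fold change of 0.58 ± 0.13 (edgeR adjusted p = 0.0581), or 0.34 with gene length trends removed. *Tnfaip8l2*, a negative regulator of immune cell activation, was at -0.95 ± 0.22 (0.0601).

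Of the 34 target genes 31 were tested, 3 were called lower and 0 higher, and the median log2 fold change was -0.49. DESeq2 called 10 of them, beside 273 genes higher and 327 lower among all genes. Without Gent+Fos OE replicate 3 edgeR called 0 of them, and only 2 genes higher and 3 lower among all genes. The 3 targets called by edgeR in the fit to all libraries encode chemokines, the proteins that draw leukocytes into tissue. The other chemokines of this list were not called in that fit. *Cxcl10* was at 110.3, 141.4 and 126.1 CPM in the Gent libraries and 42.66, 50.83, 38.06 and 33.15 CPM with *Fos* overexpression, a log2 fold change of -1.61 ± 0.16 (edgeR adjusted p = 0.00152). *Ccl5* changed by -1.71 ± 0.16 (0.0014) and *Cxcl5* by -1.73 ± 0.21 (0.00316). Leaving out Gent+Fos OE replicate 3 took all of these above 0.01, to 0.0168 for *Cxcl10* and *Cxcl5* and 0.0117 for *Ccl5*, and *Cxcl5* was also above 0.01 without Gent+Fos OE replicate 1 (0.0115) or 4 (0.0145). At the 0.05 limit without Gent replicate 2, 9 targets were lower, beside 286 of all 17155 tested genes. With all libraries 6 targets were lower and 1 was higher at that limit (1.19% and 0.665% of all tested genes). The higher gene, *Tnfrsf9*, a costimulatory receptor of the TNF receptor family and named here after its values were seen, was at 0.1711, 0.0641 and 0.2311 CPM in the Gent libraries and 1.205, 0.7961, 2.311 and 0.9981 CPM in the Gent+Fos OE libraries (log2 fold change 3.05 ± 0.60, edgeR adjusted p = 0.0345). It was separated from the Gent group in every library, at low counts, and its adjusted p was above 0.05 without Gent+Fos OE replicate 1 (0.0907) or 3 (0.103) or Gent replicate 3 (0.0747).

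**Figure D5:**
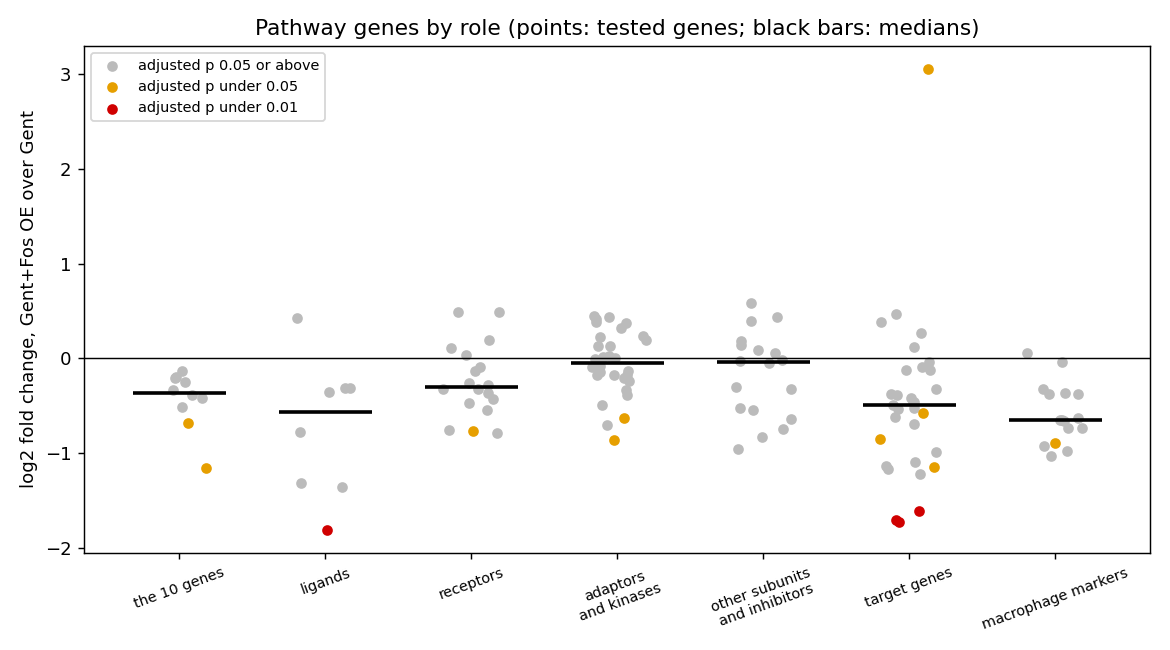
Log2 fold changes (y axis, Gent+Fos OE over Gent) of the tested genes of each role list and of the macrophage markers, 1 point per gene, with black bars for medians. Red points have an edgeR adjusted p under 0.01 and orange points under 0.05. Medians lie at -0.36 for the 10 genes, -0.57 for the ligands, -0.30 for the receptors, -0.49 for the target genes and -0.65 for the macrophage markers, and near zero for the other lists.

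In pooled utricles, fewer cells of a type and less RNA per cell cannot be told apart. Of the 16 macrophage markers, all tested, 15 had fold changes below zero (8592 of all 17155 tested genes), and the median log2 fold change was -0.65. At an unadjusted edgeR p under 0.05, 10 were lower and 0 higher (13.4% and 11.1% of all tested genes), and 0 were called. Summed over the list, their level ran from 3509 to 5417 CPM with *Fos* overexpression and from 5714 to 7621 CPM in Gent, so the group means stood at 64.8% of Gent. The most abundant of them, *Lyz2*, which encodes lysozyme, had a log2 fold change of -0.65 ± 0.18 (edgeR adjusted p = 0.0885), and *Adgre1*, a surface marker of mature macrophages, -0.65 ± 0.23 (0.139).

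Divided by the summed macrophage marker level of the same library, *Tnf* was at 0.564%, 0.558% and 0.587% of it in the Gent libraries and at 0.448%, 0.318%, 0.395% and 0.391% in the Gent+Fos OE libraries. *Tnf* was the only gene of the 10 whose groups remained apart on this scale. *Nfkbie* was at 0.372%, 0.402% and 0.477% in the Gent libraries and at 0.391%, 0.503%, 0.423% and 0.311% in the others, and its group means were 0.417% ± 0.0544 (SD, n = 3) and 0.407% ± 0.0798 (SD, n = 4). On the same scale the means of the other 8 genes were higher with *Fos* overexpression, each with overlapping groups. *Nfkb1*, for example, was at 2.93% ± 0.719 (SD, n = 4) against 2.04% ± 0.335 (SD, n = 3). Because the summed markers stood at 64.8% of Gent, genes that were lowered less than this sum come out higher by arithmetic. *Lyz2* alone made up the larger part of the sum, with means of 2491 CPM in Gent+Fos OE and 3921 CPM in Gent. This scale was chosen after the values were seen, and the part of macrophage content in the fold changes was not tested.

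Neutrophil markers summed to 4.812 to 6.614 CPM with *Fos* overexpression and 9.101 to 20.57 CPM without, with the defining *Ly6g* under 0.1 CPM in every library. Endothelial markers, from cells that can carry the *Icam1* product, overlapped between the groups at 133.3 to 179.5 CPM against 145.4 to 210.4 CPM in Gent, as did those of mesenchyme, Schwann cells and hair cells. Melanocyte markers were lower with *Fos* overexpression, 32.21 to 38.26 against 70.37 to 116.5 CPM. Of these 6 markers 2 were called (0.28% of all tested genes were called lower), and neither without Gent+Fos OE replicate 3, for example. The hair cell sums were followed by those of supporting cells, whose markers summed to 2343 to 2684 against 1545 to 2115 CPM. Among the supporting cell markers *Otog*, which encodes otogelin of the otolithic membrane, was called higher (log2 fold change 1.25 ± 0.18, edgeR adjusted p = 0.00851). The call held in 1 of 7 fits with a library left out, without Gent replicate 2, and the adjusted p was otherwise at 0.0131 to 0.0415. Without *Otog* the sums of the other 7 markers overlapped, 1330 to 1568 against 1114 to 1649 CPM. At an edgeR adjusted p under 0.05 with the fold limit, 1 supporting cell marker was lower and only *Otog* was higher. *Cd3e*, a T cell marker, was at 0.308, 0.09615 and 0.2889 CPM in the Gent libraries and at 0.7816, 0.3062, 0.4749 and 0.4991 CPM with *Fos* overexpression, a difference of 1.14 ± 0.58 on the log2 scale (edgeR adjusted p = 0.243) at very low counts. The part of these cell types in the values of the 10 genes was not tested.

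The genes most like the 10 were found by correlating the log2 CPM of 14828 other genes with the mean standardized log2 CPM of the 10 over the 7 libraries. Pearson's r was highest for *Cfb*, which encodes complement factor B (0.9895), *Fbln5*, which encodes an elastic fiber protein (0.9888), *Actb*, which encodes beta-actin (0.9848), *Tlr2* (0.9833) and *Oas2*, an interferon-induced gene (0.9813). These values describe 7 libraries in 2 groups. *Cfb* alone of the 5 was called, with a log2 fold change of -1.40 ± 0.18 (edgeR adjusted p = 0.0051), and the call was lost without any 1 Gent+Fos OE library (0.0115 to 0.03) or Gent replicate 3 (0.0181). *Oas2* was at -1.21 ± 0.22 (0.025), and its edgeR adjusted p was above 0.05 without Gent+Fos OE replicate 2 (0.0749), 3 (0.101) or 4 (0.056). *Actb*, at -0.37 ± 0.11 (0.116), had a fold change close to the median of the 10 genes.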

How the data were processed

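Total RNA of 7 pools of utricles was sequenced. The authors deposited unnormalized counts of reads per gene, and the file headers name featureCounts 2.0.6 with an mm10 annotation, no strand setting, the reads of a pair counted separately and reads that hit several genes left out. The submitters' processing notes also name Trim Galore 0.6.10, HISAT2 2.2.1 and DESeq2 1.34.0. The study's methods name mm39 and other versions of Trim Galore, featureCounts and DESeq2, so coordinates are given as in the files. The deposited gene length, the number of exonic bases, was used for levels per kb.

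Totals ran from 27879889 to 34335214 counts per library (median 31313523). Genes were filtered by filterByExpr, normalized by TMM and compared in R 4.3.3 with edgeR 4.0.16 (quasi-likelihood F-test, no covariate, 4 against 3 libraries), with Benjamini-Hochberg adjustment over 17155 genes. The limits were those of the study, an adjusted p below 0.01 with a log2 fold change beyond 0.25 in either direction. Log2 CPM used a prior count of 2. The members were also tested one by one with an exact permutation test (35 groupings). DESeq2 1.42.0 (10 or more counts in total), limma 3.58.1 (voom), RLE factors, no filter, a filter of 10 counts in each library, halved counts, an offset for gene length (loess, span 0.3), the replicate number as a block alone and together with this offset, each library left out and an adjusted p of 0.05 were the alternatives. The scripts were tested on simulated data, where edgeR called 31 of 50 genes set to 0.5 of their level and 46 of 50 set to 0.25. A change smaller than these can therefore be missed at the limits used. Tables and figures used pandas 2.3.3 and matplotlib 3.10.9 under Python 3.11.15.

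Libraries of 1 group deviated beyond sampling noise (chi-square per degree of freedom 16.83 to 139.1), so the spread between libraries limits the precision. A symbol was given to 24493 of 32285 genes, and 198 of 199 list genes matched. The members and lists were chosen with earlier results of these data known. Genes named are the 10 members, *Fos*, called genes of the role lists with the 2 lowest p per role at a mean of at least 1 CPM, the 5 genes most like the members, and the 2 most abundant markers per cell type, of which those of macrophages are given. *Otog* and *Cd3e* are also among them, and *Tnfrsf9* was added after its values were seen. Single-cell, chromatin and imaging data of the study were not used here. The summed level of 1 marker list is not reported here.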

Additional observations from a re-analysis of the deposited data

Results flagged for a closer look

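*Fos* in Gent+Fos OE replicate 3 was flagged because this library lay apart from the other 3 of its group, at 167.0 CPM against 148.8 to 151.1 CPM. The gap was 0.873 of the whole range of the group. The groups of 4 libraries were examined in this way for 11 genes, the 10 members and *Fos*, and chance alone flags about 1 in 20 groups. None of the 10 members was flagged.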

How the results depend on the processing

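Under 16 other fits, 158 of the 160 fold changes of the 10 genes kept their direction and 155 also their side of the limit. The exceptions in direction were *Nfkbia*, at 0.0149 with a replicate block and gene length offset, and *Tnfaip3*, at 0.0649 without Gent replicate 1 (lowest -0.4446, without Gent replicate 2). DESeq2 called 2 of the 10 genes (*Tnf* and *Nfkbie*), no filter 1 (*Tnf*) and an adjusted p of 0.05 gave 2 (both), against 0 in the reported fit, and 0 were called higher in any fit. The median log2 fold change of the 10 genes moved to -0.4472 with the gene length offset and lay between -0.4056 and -0.3063 with a library left out. Over all genes, 23 were called higher and 48 lower, which became 273 and 327 with DESeq2, 63 and 141 without a filter, 35 and 87 with the length offset, and 114 and 205 at an adjusted p of 0.05. With a library left out these counts ran from 2 to 45 and from 3 to 93, lowest without Gent+Fos OE replicate 3 and highest without Gent replicate 2. DESeq2 called 2 ligands, 1 receptor, 2 adaptors and kinases, 2 other subunits and inhibitors and 10 target genes, and with a library left out 0 to 1 ligands and 0 to 4 targets were called. The cause of these shifts was not tested. Libraries of both groups share replicate numbers, but same-numbered libraries correlated by only 0.06433, -0.03802 and 0.03167 in their deviations, so the numbers do not pair them. With the replicate block edgeR called 0 higher and 0 lower (1697 and 1703 at an unadjusted p under 0.05, with adjusted p 0.0731 for *Tnf* and 0.135 for *Nfkbie*), and with block and length offset 14 and 19.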
